A study of Arabidopsis thaliana with 9 samples.

Results

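The 6 Arabidopsis genes described here, IVD, MCCA, MCCB, AT2G26800, ETFQO and D2HGDH, belong to the breakdown of leucine in mitochondria or to the electron transfer attached to it. They were taken by name, as the probe sets that pair with each gene alone, and each of the 6 genes had 1 probe set among the 13286 genes and 22810 probe sets that the array could be read for. The 6 were picked with the genotype differences on these same arrays known, so their differences are given as descriptions and not as evidence. RNA from whole seedlings grown for 3 days in the light on medium with sucrose was measured on 9 one-colour Affymetrix arrays, 3 for each of 3 genotypes. Col-0 is the untransformed wild type. The SPL13 seedlings are Col-0 transformed with the non-mutated gene for the transcription factor SPL13 under its own promoter, and the mSPL13 seedlings are Col-0 transformed with a mutant form of that gene, named microRNA156 resistant in the series title, under the same promoter. The number of transgenic lines was not given in the sources used here, and the SPL13 transcript itself was not analysed. Per the labels, each genotype has 3 biological replicates, which come from separate seed lots.

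In plant mitochondria, leucine is first stripped of its amino group and oxidised to isovaleryl-CoA by the branched-chain 2-oxoacid dehydrogenase complex, steps that valine and isoleucine share. Isovaleryl-CoA dehydrogenase (IVD), the biotin-dependent methylcrotonyl-CoA carboxylase made of the subunits MCCA and MCCB, a hydratase and hydroxymethylglutaryl-CoA lyase (AT2G26800) then carry leucine to acetyl-CoA and acetoacetate. IVD passes its electrons to the electron transfer flavoprotein, from which ETFQO hands them to ubiquinone in the respiratory chain. D2HGDH, D-2-hydroxyglutarate dehydrogenase, feeds electrons into the same flavoprotein and is not itself a step of leucine breakdown. The route is known to be used when carbohydrate is short and amino acids are respired.

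The arrays carried the same overall scaling, with median signals of 175.9 to 191.6. Any pair of arrays correlated at 0.959 to 0.988 on the log2 scale across the 13647 probe sets kept for testing. Of the markers of seedling tissues, the 3 photosynthetic genes measured (RCA, PRK and LHCB4.2) and the 4 root genes measured (PYK10, EXPA7, EXPA18 and NAI2) were all above the signal needed for testing, and no probe set was named for the seed markers. In whole seedlings, fewer cells that use a gene and less of its RNA per cell cannot be told apart. The library that stands apart is SPL13 replicate 1, where the median of 66 chloroplast-encoded probe sets lay at -2.35 relative to the Col-0 mean on the log2 scale, against -0.99 and -0.80 in the other SPL13 arrays and -0.03 to 0.30 in mSPL13. The ratio of 3′ to 5′ signal of the GAPDH control, which rises as RNA breaks down, was 1.01 to 1.10 in mSPL13, 0.944 to 0.999 in Col-0 and 0.838 to 1.03 in SPL13. That of the actin control spread most, at 2.27 to 3.21 in mSPL13, 2.49 to 2.67 in Col-0 and 2.21 to 2.94 in SPL13, and that of the ubiquitin control was 1.10 to 1.28, 1.05 to 1.20 and 1.05 to 1.09 in the same order. The part of these ratios in the results below was not tested.

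The comparisons of mSPL13 with Col-0 and with SPL13 ask what the mutant form of the gene changes, and they share the mSPL13 arrays. IVD, MCCA, MCCB and ETFQO were higher in every mSPL13 array than in any array of the other genotypes, while AT2G26800 and D2HGDH overlapped among all 3 genotypes. Adjusted p was under 0.05 for 3 of the 6 genes (IVD, MCCA and ETFQO) in each of the 2 mSPL13 comparisons, where 2.07% (against Col-0) and 1.86% (against SPL13) of all 13647 probe sets were called higher, and under 0.05 for 0 of 6 in SPL13 against Col-0, where 0.0147% were called higher. The groups did not overlap for 4 of the 6 against Col-0, where 12.6% of all probe sets were higher without overlap, and for the same 4 against SPL13, where 12.3% were. Since the genes were picked with these differences known, nothing is read from those counts. The median log2 fold change over the 6 genes was 0.47 against Col-0, 0.50 against SPL13 and 0.01 for SPL13 against Col-0, beside 0.01, 0.00 and 0.01 over all probe sets tested.

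**Figure D1:**
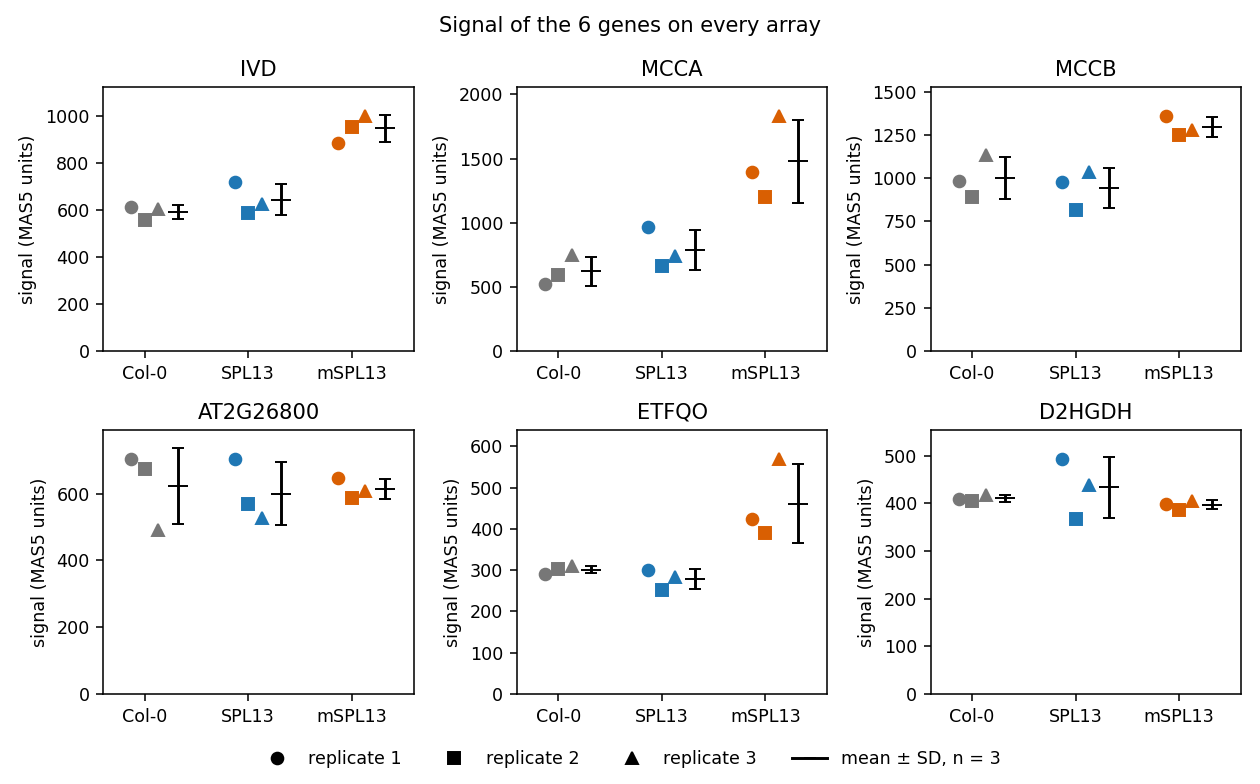
Signal (MAS5 units, linear axis from 0) of IVD, MCCA, MCCB, AT2G26800, ETFQO and D2HGDH on each of the 9 arrays, by genotype, with symbols for replicates 1 to 3 and bars for the mean ± SD (n = 3). The mSPL13 points of IVD, MCCA, MCCB and ETFQO lie above all Col-0 and SPL13 points, and those of AT2G26800 and D2HGDH lie among them.

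IVD is the flavin enzyme that acts on isovaleryl-CoA after the shared steps. Its signals were 612.7, 559.5 and 603.9 for Col-0, 717.7, 588.4 and 627.3 for SPL13, and 886, 955 and 1002 for mSPL13. The mSPL13 arrays stood clear of the rest, and Col-0 and SPL13 overlapped. Mean signals were 592 ± 28.5 for Col-0, 644.5 ± 66.3 for SPL13 and 948 ± 58.3 for mSPL13 (SD, n = 3). On the log2 scale used throughout, log2(signal + 20.7), the fold change was 0.66 ± 0.12 (moderated SE) in mSPL13 against Col-0, or 1.58-fold, 0.54 ± 0.12 against SPL13, and 0.11 ± 0.12 in SPL13 against Col-0. The IVD difference from Col-0 stayed past the threshold under every alternative tried, at 0.60 to 0.71.

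MCCA, the biotin-carrying subunit of methylcrotonyl-CoA carboxylase, had the widest range of the 6. Its signals were 526.2, 594.2 and 748.3 for Col-0, 963.9, 662.8 and 739.3 for SPL13, and 1396, 1200.2 and 1835 for mSPL13. SPL13 replicate 1 was above all Col-0 arrays, the other SPL13 arrays lay within the Col-0 range, and the lowest mSPL13 array was above both groups. The mean signal was 623 ± 114 for Col-0, 789 ± 157 for SPL13 and 1477 ± 325 for mSPL13 (SD, n = 3). The log2 fold change of MCCA was 1.21 ± 0.18 in mSPL13 against Col-0, or 2.32-fold, 0.88 ± 0.18 against SPL13, or 1.84-fold, and 0.33 ± 0.18 in SPL13 against Col-0. Without SPL13 replicate 1 the last value was 0.18 and that of mSPL13 against SPL13 was 1.03.

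MCCB, the subunit of the same carboxylase that holds the carboxyl transfer site, had signals of 983.7, 888.7 and 1131 for Col-0, 980.2, 813.1 and 1032.5 for SPL13, and 1361.5, 1249 and 1280.3 for mSPL13. All 3 mSPL13 arrays were above the highest of the other 6, by a smaller margin than for MCCA. Mean signals were 1001 ± 122 for Col-0, 942 ± 115 for SPL13 and 1297 ± 58.0 for mSPL13 (SD, n = 3). MCCB had log2 fold changes of 0.37 ± 0.13 against Col-0 and 0.46 ± 0.13 against SPL13, neither of which was called, and -0.09 ± 0.13 in SPL13 against Col-0.

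The 2 carboxylase subunits differed in how far they moved. Within each array the log2 value of MCCA minus that of MCCB, set to a Col-0 mean of 0, was -0.20, 0.11 and 0.09 for Col-0, 0.65, 0.39 and 0.20 for SPL13, and 0.71, 0.62 and 1.19 for mSPL13. MCCA thus gained on MCCB in all 6 transgenic arrays relative to every Col-0 array. The SPL13 and mSPL13 ranges overlapped, because SPL13 replicate 1 lay above mSPL13 replicate 2. The difference was -0.14 to 0.33 in mSPL13 for IVD minus ETFQO, with means of 0.10 ± 0.23 in mSPL13 and 0.22 ± 0.06 in SPL13 (SD, n = 3), so the dehydrogenase and the oxidoreductase that takes up its electrons were raised by amounts that did not separate mSPL13 from the other genotypes. These differences come from the genes picked, and no test was made of them.

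**Figure D2:**
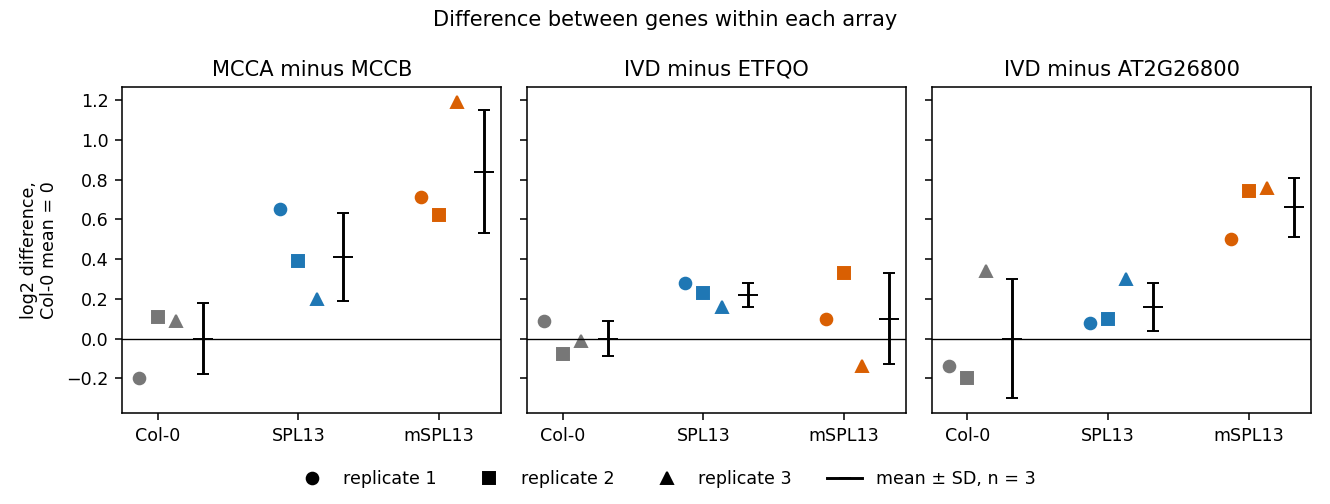
Difference between the log2 values of 2 genes within each array, with the Col-0 mean set to 0, for MCCA minus MCCB, IVD minus ETFQO and IVD minus AT2G26800, with symbols for replicates 1 to 3 and bars for the mean ± SD (n = 3). MCCA minus MCCB is at 0.20 to 0.65 in SPL13 and 0.62 to 1.19 in mSPL13, IVD minus ETFQO in mSPL13 spans 0, and IVD minus AT2G26800 is at 0.50 to 0.76 in mSPL13.

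AT2G26800, the lyase that ends leucine breakdown by splitting hydroxymethylglutaryl-CoA, had signals of 703.7, 672.1 and 491.4 for Col-0, 704.9, 568.4 and 526.9 for SPL13, and 646.4, 585.4 and 608.2 for mSPL13. The 3 groups overlapped, and Col-0 and SPL13 each spread wider than mSPL13. Mean signals were 622 ± 115, 600.1 ± 93.1 and 613 ± 30.8 in that order (SD, n = 3). The log2 fold changes of AT2G26800 were -0.01 ± 0.15 in mSPL13 against Col-0, 0.04 ± 0.15 against SPL13 and -0.04 ± 0.15 in SPL13 against Col-0. Within arrays, IVD minus AT2G26800 on the log2 scale was 0.50, 0.74 and 0.76 in mSPL13. It was 0.08, 0.10 and 0.30 in SPL13, and -0.14, -0.20 and 0.34 in Col-0. In mSPL13, IVD thus stood higher relative to the lyase than in any other array.

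ETFQO, the membrane enzyme that passes electrons from the flavoprotein to ubiquinone, had signals of 291.9, 302.5 and 309.7 for Col-0, 300, 251.9 and 284.5 for SPL13, and 424.9, 388.9 and 570.4 for mSPL13. All mSPL13 arrays were above the other 6, with mSPL13 replicate 3 well above its own group. Mean signals were 301.4 ± 8.95 for Col-0, 279 ± 24.6 for SPL13 and 461 ± 96.1 for mSPL13 (SD, n = 3). ETFQO had log2 fold changes of 0.56 ± 0.15 against Col-0 (1.48-fold), 0.67 ± 0.15 against SPL13 (1.59-fold), and -0.11 ± 0.15 in SPL13 against Col-0. Without mSPL13 replicate 3 they were 0.41 against Col-0 and 0.52 against SPL13, and neither was called.

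D2HGDH, the other electron donor to the flavoprotein among the 6, had signals of 409.6, 403.7 and 416.9 for Col-0, 493.7, 366.9 and 438.9 for SPL13, and 399.4, 386.2 and 405.7 for mSPL13. Col-0 and mSPL13 lay close together and the SPL13 arrays spanned both. The log2 fold changes were -0.04 ± 0.13 in mSPL13 against Col-0, -0.11 ± 0.13 against SPL13 and 0.07 ± 0.13 in SPL13 against Col-0. The donors IVD and D2HGDH thus did not go together, while ETFQO, which serves both, was higher in mSPL13 like IVD.

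Most of the 6 genes shared an order among replicates in SPL13 and mSPL13, and less so in Col-0. The same counts were not made over all probe sets, so the order is not shown to be particular to these genes. In SPL13, replicate 1 had the highest signal for 5 of the 6 genes and replicate 2 the lowest for 5. In mSPL13, replicate 3 had the highest signal for 4 and replicate 2 the lowest for 5. In Col-0 replicate 3 had the highest for 4, while the lowest was replicate 1 for 2, replicate 2 for 3 and replicate 3 for 1. The 3′ to 5′ ratio of the actin control had the same order, at 2.94, 2.21 and 2.62 in SPL13 replicates 1 to 3, 3.12, 2.27 and 3.21 in those of mSPL13, and 2.63, 2.49 and 2.67 in those of Col-0. The other controls did not share it, although both were lowest in replicate 2 within mSPL13. GAPDH was highest in SPL13 replicate 2 (1.03) and mSPL13 replicate 1 (1.10). Ubiquitin was highest in SPL13 replicate 3 (1.09), mSPL13 replicate 1 (1.28) and Col-0 replicate 1 (1.20). SPL13 replicate 1 is also the array with the lowest chloroplast-encoded signal, and it had the lowest GAPDH ratio of all arrays (0.838). The part of RNA quality and of the chloroplast signal in the order was not tested. Without SPL13 replicate 1, the log2 fold changes of mSPL13 against SPL13 were 0.62 for IVD, 1.03 for MCCA, 0.49 for MCCB, 0.72 for ETFQO, 0.16 for AT2G26800 and -0.01 for D2HGDH, so the genes that differed did so by at least as much as with it.

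The calls of IVD, MCCA and ETFQO against SPL13 depended on single arrays. Their log2 fold changes moved too but stayed positive. Without 1 array they were 0.48 to 0.62 for IVD, 0.72 to 1.03 for MCCA and 0.52 to 0.78 for ETFQO. All 3 calls were lost without SPL13 replicate 2 or 3 or without mSPL13 replicate 1 or 3, at log2 fold changes of 0.48 to 0.59 for IVD, 0.72 to 0.91 for MCCA and 0.52 to 0.72 for ETFQO, and that of IVD also without mSPL13 replicate 2 (0.54). Against Col-0, IVD and MCCA stayed past the threshold in all 9 fits that leave out 1 array, and ETFQO was called in only 1 of them, that without mSPL13 replicate 2.

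**Figure D3:**
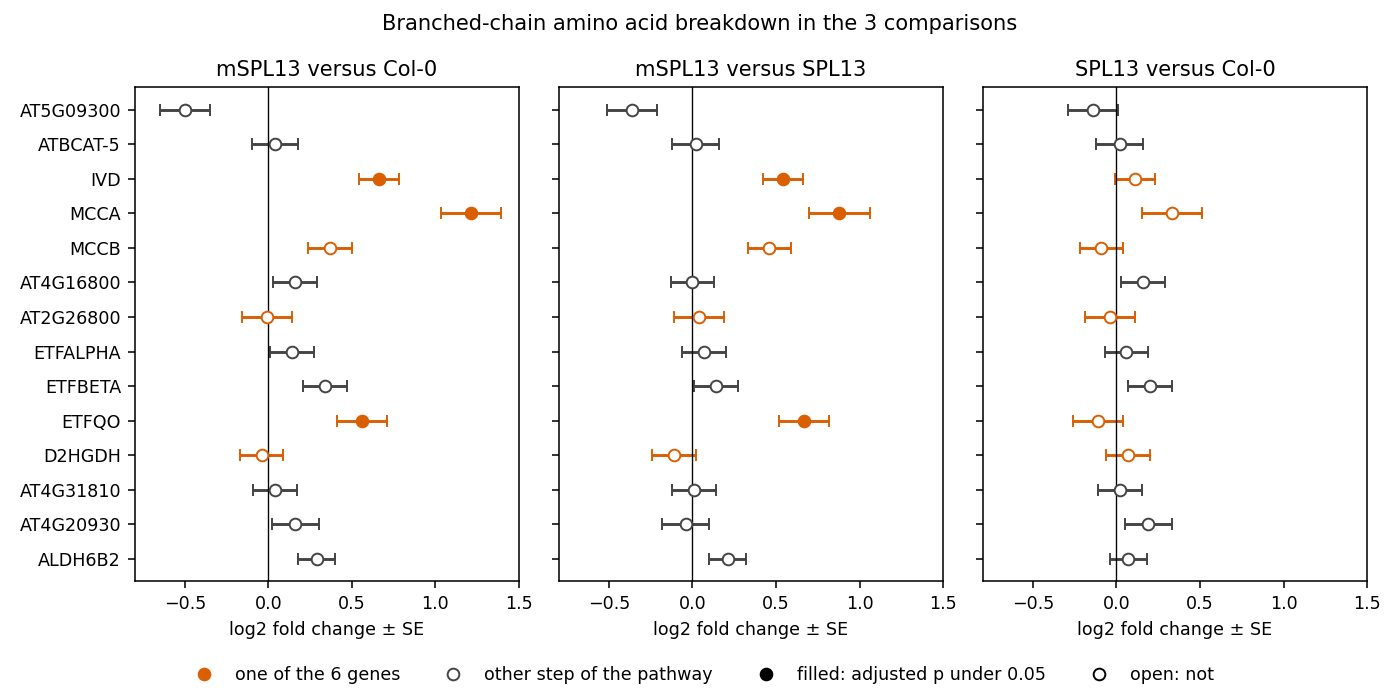
Log2 fold change ± moderated SE of the 6 genes (orange) and 8 other genes (grey) in the 3 comparisons, 3 arrays per genotype. The 8 are genes listed for branched-chain amino acid breakdown and its electron transfer. Filled points have an adjusted p under 0.05, which holds for IVD, MCCA and ETFQO in both mSPL13 comparisons and for 0 of the 8 other genes.

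The rest of the pathway was read from a list of 21 genes. It holds the shared entry steps, the hydratase step after the carboxylase, the valine and isoleucine branch and the flavoprotein. Of the 21, 8 had a probe set of their own and all 8 were tested. In limma, 0 of the 8 passed in mSPL13 against Col-0, 0 against SPL13 and 0 in SPL13 against Col-0, where 4.37%, 3.03% and 0.0513% of all probe sets were called in either direction, and the median log2 fold changes were 0.15, 0.02 and 0.07. Of 12 genes in the part that holds the shared entry steps and the hydratase step, 3 had a probe set of their own. They were AT5G09300, ATBCAT-5 and, for the hydratase step, AT4G16800. Among them AT5G09300, an E1 alpha subunit, was the only gene read of the branched-chain 2-oxoacid dehydrogenase complex that acts before IVD. The probe set shared by AT1G21400 and AT5G34780 was not read, so the values of AT5G09300 do not stand for the complex. AT5G09300 went the other way from IVD, with signals of 376.1, 310.3 and 318.1 for Col-0, 281.5, 346.4 and 276.1 for SPL13, and 273.4, 226.3 and 195.4 for mSPL13. The mSPL13 arrays were all below the others, but the share of all probe sets that were lower without overlap was not counted. Its log2 fold change was -0.50 ± 0.15 against Col-0 (limma adjusted p = 0.0795, 95% interval -0.83 to -0.17) and -0.36 ± 0.15 against SPL13 (adjusted p = 0.253), which did not pass.

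The genes for both subunits of the electron transfer flavoprotein, the carrier between IVD and ETFQO, had small positive values. ETFBETA averaged 531.5 ± 70.6 for Col-0, 609.7 ± 41.7 for SPL13 and 674 ± 55.9 for mSPL13 (SD, n = 3), and ETFALPHA 482 ± 35.5, 504 ± 33.9 and 534 ± 60.8. In mSPL13 against Col-0 the log2 fold change was 0.34 ± 0.13 for ETFBETA (limma adjusted p = 0.159, 95% interval 0.06 to 0.61) and 0.14 ± 0.13 for ETFALPHA (adjusted p = 0.592, -0.13 to 0.41). The groups overlapped for both genes in all 3 comparisons.

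AT4G16800, an enoyl-CoA hydratase family gene listed for the step between the carboxylase and the lyase, had a log2 fold change of 0.16 ± 0.13 in mSPL13 against Col-0 and 0.00 ± 0.13 against SPL13, with limma adjusted p of 0.546 and 0.997. ATBCAT-5, a branched-chain aminotransferase, was at 0.04 ± 0.14 and 0.02 ± 0.14 (adjusted p = 0.901 and 0.964 in limma). Where in the cell this isoform acts was not examined, so its values do not stand for the first mitochondrial step. In the valine branch, ALDH6B2, the methylmalonate semialdehyde dehydrogenase, was at 0.29 ± 0.11 against Col-0 (limma adjusted p = 0.159). Its signals were 2217, 2190.5 and 2659.5 in Col-0 and 2997, 2957 and 2657 in mSPL13, which overlapped. Against SPL13 (2425.6, 2464.2 and 2511.9) ALDH6B2 was at 0.21 ± 0.11 (limma adjusted p = 0.348). Those groups did not overlap, beside 12.3% of all probe sets higher without overlap. AT4G20930, 3-hydroxyisobutyrate dehydrogenase, was at 0.16 ± 0.14 and AT4G31810, a hydroxyisobutyryl-CoA hydrolase family gene, at 0.04 ± 0.13 against Col-0 (limma adjusted p = 0.586 and 0.91). For these 5 genes the 95% intervals of mSPL13 against Col-0 reached no higher than 0.52.

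Among other routes into ubiquinone, 7 probe sets were tested and 0 passed in any of the 3 comparisons (limma). Over all probe sets, 4.37% were called in mSPL13 against Col-0, 3.03% against SPL13 and 0.0513% in SPL13 against Col-0. Beside these shares, 0 of 7 does not show that the routes were unchanged. The median log2 fold change of the 7 was 0.09 in mSPL13 against Col-0 and -0.02 against SPL13. The alternative NAD(P)H dehydrogenase NDB2 was at -0.37 ± 0.15 against Col-0 (limma adjusted p = 0.191) and -0.41 ± 0.15 against SPL13 (adjusted p = 0.185), NDB1 at 0.25 ± 0.12 (0.278) and 0.10 ± 0.12 (0.726), and the succinate dehydrogenase subunits SDH2-2 and SDH1-1 at 0.14 ± 0.11 and -0.20 ± 0.14 against Col-0. Of the genes that act after ubiquinone, 3 were tested and 0 passed, beside the same shares. CYTC-2, a cytochrome c, was at -0.53 ± 0.15 against Col-0 (limma adjusted p = 0.0631, and called without Col-0 replicate 2 at -0.67, with median centring at -0.55 and with a replicate block at -0.53), while its paralog CYTC-1 was at 0.00 ± 0.10 and AT5G40810, a cytochrome c1 gene, at -0.13 ± 0.12.

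The lysine-degrading enzyme AT4G33150, a bifunctional lysine-ketoglutarate reductase and saccharopine dehydrogenase, and ALDH7B4, an aldehyde dehydrogenase of the same route, were the other amino acid breakdown genes measured. AT4G33150 had signals of 927.3, 877.2 and 966.9 for Col-0, 1067, 830.4 and 965.7 for SPL13, and 1239, 1182 and 1256 for mSPL13. The mSPL13 arrays were above all others, beside 12.6% of all probe sets higher without overlap against Col-0 and 12.3% against SPL13. The AT4G33150 log2 fold changes of 0.40 ± 0.12 against Col-0 (limma adjusted p = 0.071) and 0.36 ± 0.12 against SPL13 (adjusted p = 0.124) did not pass. Nor did those of ALDH7B4 (0.28 ± 0.12 and 0.37 ± 0.12, adjusted p = 0.198 and 0.119 in limma).

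On the side of synthesis, 3 of 11 listed genes of branched-chain amino acid production had a probe set and were tested, and 1 was higher in mSPL13. Over all probe sets, 2.07% were called higher against Col-0 and 1.86% against SPL13. As the list was chosen with earlier results of these data known, its values are descriptions. AT2G31810, a regulatory subunit of acetolactate synthase, rose from 1031 ± 139 in Col-0 and 1176 ± 69.8 in SPL13 to 1692 ± 114 in mSPL13 (SD, n = 3), a log2 fold change of 0.71 ± 0.12 against Col-0 (limma adjusted p = 0.00461) and 0.52 ± 0.12 against SPL13 (adjusted p = 0.0327). The second of these calls was lost without any of the SPL13 or mSPL13 arrays (0.46 to 0.56), when low signals were not filtered out and without a variance trend. AT3G58610, ketol-acid reductoisomerase, and AT3G23940, dihydroxyacid dehydratase, were at 0.15 ± 0.12 and 0.05 ± 0.12 against Col-0 and did not pass. No probe set was named for the lists of biotin supply and of the genes that make or use hydroxymethylglutaryl-CoA outside mitochondria.

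Of 16 listed genes induced by darkness and low sugar, 2 had a probe set of their own and were measured. The list was chosen with earlier results of these data known, so its values are descriptions and not evidence of a low-energy response. AKINBETA1, a beta subunit of the SnRK1 kinase that responds to low energy, had signals of 558.7, 832.8 and 738 for Col-0, 1055, 930.8 and 885 for SPL13, and 1447, 1450 and 1720.4 for mSPL13, and rose by 1.11 ± 0.15 against Col-0 (limma adjusted p = 0.000973) and 0.67 ± 0.15 against SPL13 (adjusted p = 0.024) on the log2 scale. The 3 groups did not overlap. Of all probe sets, 12.6% were higher without overlap in mSPL13 against Col-0 and 12.3% against SPL13. That share was not counted for SPL13 against Col-0, where AKINBETA1 was not called (0.44 ± 0.15, limma adjusted p = 0.432). The call against SPL13 was lost without SPL13 replicate 2 or 3, without any of the mSPL13 arrays (0.59 to 0.71), or with no filter on low signal. BZIP53, a bZIP transcription factor, was at 0.22 ± 0.12 and 0.31 ± 0.12 and did not pass.

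Likeness to the 6 genes was measured as the mean of the Pearson correlations of a probe set with the 6 over the 9 arrays, on log2 values. It is a description, since all arrays of a genotype share its differences. The 5 probe sets of 1 gene with the highest mean were AT4G33150 (mean r = 0.654), AT1G22890 (0.65), AT2G32150 (0.648), AT2G33250 (0.641) and AT5G19120 (0.632). The lysine-degrading gene described above was therefore the highest among the kept probe sets of 1 gene, and other probe sets were not ranked.

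AT2G32150, a haloacid dehalogenase-like hydrolase, averaged 1080.2 ± 122 for Col-0, 1114 ± 381 for SPL13 and 1717 ± 262 for mSPL13 (SD, n = 3). AT5G19120, of the aspartyl protease family, averaged 1537 ± 89.5, 1415 ± 269.9 and 2372 ± 199.7, and was called in mSPL13 against Col-0 (log2 fold change 0.62 ± 0.13, limma adjusted p = 0.0189) and against SPL13 (0.75 ± 0.13, adjusted p = 0.0089). AT1G22890 averaged 80.0 ± 5.25, 87.5 ± 27.1 and 157 ± 22.2, and passed the filter on low signal only through its mSPL13 arrays (its mean stands at the 40.3rd percentile), so its log2 differences of 0.81 from Col-0 and 0.74 from SPL13 are given with no call. For AT5G19120 the call against Col-0 was lost without mSPL13 replicate 3 or Col-0 replicate 1 or 2 (0.55 to 0.66). AT2G32150 was called against neither group, at 0.65 against each, but was called without SPL13 replicate 1 against SPL13 (0.92) and Col-0 (0.65), with array quality weights against SPL13 (0.72) and on the compared groups only against Col-0 (0.65). These genes were picked by their pattern, and SPL13 replicate 1 was the highest SPL13 array for AT4G33150, AT1G22890, AT2G32150, AT2G33250 and AT5G19120 as it was for most of the 6.

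**Figure D4:**
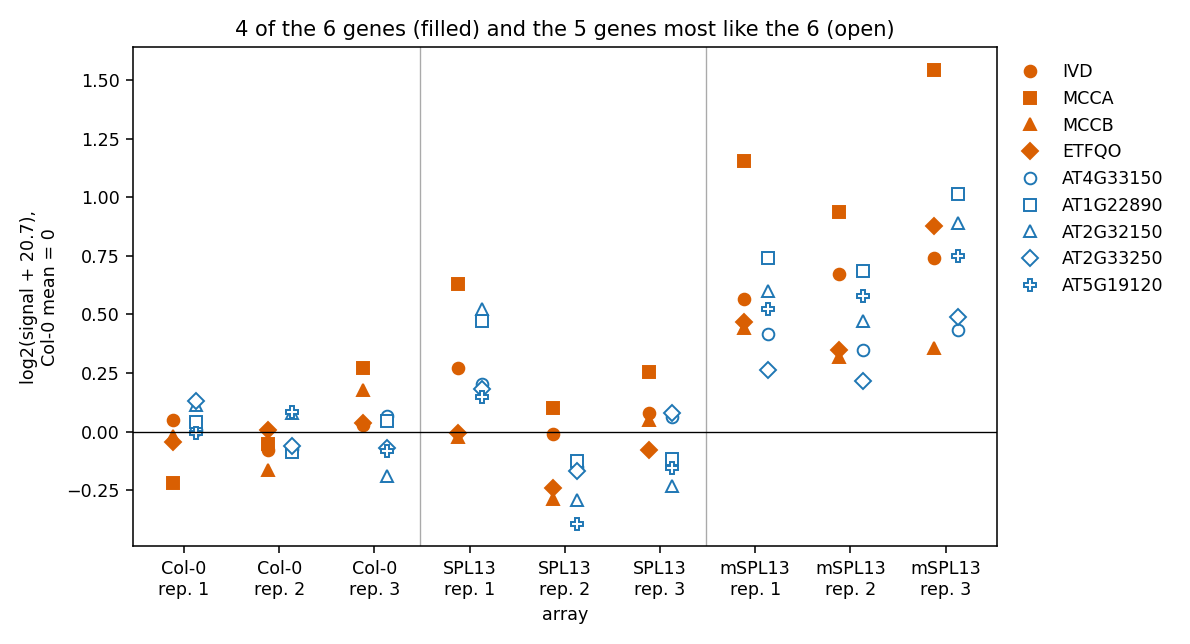
Log2(signal + 20.7) relative to the Col-0 mean on each of the 9 arrays for IVD, MCCA, MCCB and ETFQO (filled) and for the 5 genes with the highest mean correlation with the 6 genes (open). All 9 genes are above 0 in every mSPL13 array, and MCCA in mSPL13 replicate 3 is the highest point.

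Among the tissue markers, NAI2, a gene of endoplasmic reticulum bodies used as a root marker here, was lower in mSPL13 (log2 fold change -0.67 ± 0.11 against Col-0, limma adjusted p = 0.00377, and -0.60 ± 0.11 against SPL13, adjusted p = 0.0097). The call against SPL13 was lost without mSPL13 replicate 1 (-0.53). All 4 root markers had negative values in mSPL13 against Col-0, and all 4 also in SPL13 against Col-0. In mSPL13 against SPL13, 2 were positive (EXPA7 at 0.22 ± 0.18 and PYK10 at 0.04 ± 0.09) and 2 negative. The 3 root markers besides NAI2 did not pass, with EXPA18 at -0.50 ± 0.15 (called without Col-0 replicate 3 at -0.61 and with a replicate block at -0.50), EXPA7 at -0.09 ± 0.18 and PYK10 at -0.07 ± 0.09 in mSPL13 against Col-0. The 3 photosynthetic markers were at -0.14 to 0.13 in mSPL13 against Col-0 with 0 called, beside 4.37% of all probe sets. The part of tissue make-up in the differences of the leucine genes was not tested.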

How the data were processed

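The deposited values are linear intensity signals that the authors obtained with MAS5 in GCOS, per the submitters' processing notes. Their trimmed mean was 500.1 on every array, so the authors' global scaling is shared. Detection calls were not used here. Probe sets were named from the platform's gene table and matched to loci of the TAIR10.1 gene table; of the 22810 probe sets, 13513 have 1 gene in it, 503 have several, 64 are controls and the other 8730 are unnamed. Only probe sets of 1 gene were named.

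Controls were left out, signals were transformed as log2(signal + 20.7), the pseudocount being the 20th percentile, and the 13647 probe sets with a mean above 6.922 (the 40th percentile) were kept. A fold change on this scale understates that of low signals. All 6 genes passed this filter. With limma 3.58.1 (R 4.3.3), the 9 arrays were fitted together, each genotype having its own mean (trend; 6 residual and 7.92 prior degrees of freedom) for 3 comparisons, and a probe set was called where the p adjusted by Benjamini-Hochberg was under 0.05 over all probe sets kept. Every p is from limma. The fit was tested on simulated data. It recovered 47.1% of 1.5-fold changes in mSPL13 against Col-0, 39.3% in mSPL13 against SPL13 and 32.4% in SPL13 against Col-0. Changes of that size can thus be missed. Precision is limited by the number of arrays.

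The 6 genes and the gene lists were chosen with earlier results of these data known. The genes named are the 6, every measured gene of the branched-chain lists, up to 4 genes of each other list with the smallest p, and the 5 with the highest mean correlation with the 6. Intervals are 95% intervals from limma. The alternatives changed the pseudocount (10th percentile, 40th percentile, none), the filter (none, 60th percentile), the normalization (quantile, median centring), the variance trend, the arrays fitted (the compared genotypes alone, or without 1 array) and the weights of arrays, or added a replicate block. Figures and joins used Python 3.11.15, pandas 2.3.3, numpy 2.4.6 and matplotlib 3.10.9.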

Additional observations from a re-analysis of the deposited data

How the results depend on the processing

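No gene named here changed direction while called under any of the 20 alternatives, and 0 of the 8 other branched-chain genes passed under those that tested them. With the filter at the 60th percentile AT5G09300 and AT4G20930 were not tested. The median log2 fold change of the 6 genes moved by less than its spread between arrays in every alternative, at 0.42 to 0.56 against SPL13, 0.39 to 0.53 against Col-0 and -0.07 to 0.09 for SPL13 against Col-0. With no filter on low signal 1 of the 6 was called against SPL13 (IVD), with the log2 fold changes as before and more probe sets to adjust over, and with array quality weights MCCB was called too (0.45). Leaving out 1 array gave 0 to 3 of the 6 called against SPL13 and 2 or 3 against Col-0. The call of ETFQO against Col-0 was also lost with no filter, quantile normalization, median centring, no trend, the compared groups only and array quality weights (0.54 to 0.56).

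Over all probe sets, the calls against SPL13 went from 414 to 236 with no filter and 688 with array quality weights, and to 200 to 468 without 1 array. Against Col-0 they went from 596 to 373 with no filter and to 248 to 903 without 1 array. For SPL13 against Col-0 the 7 calls became 14 when the 40th percentile was the pseudocount, 1 with no filter, 24 with median centring, 1 without trend, 2 on the compared groups only, and 1 to 148 without 1 array. The highest of these counts (468, 903 and 148) were each without Col-0 replicate 3. The causes were not tested. Beside that 0 of 6 for SPL13 against Col-0, 1205 of all probe sets had an unadjusted p under 0.05 and 0 of the 6 did.

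The arrays were not treated as paired by replicate number in the main fit. Same-numbered arrays had deviations that correlated at -0.06 to 0.15, and others at -0.16 to 0.20. These ranges overlap, but so few arrays cannot exclude a weak pairing. With the replicate block, 3 of the 6 genes were called in each mSPL13 comparison and the calls over all probe sets were 431, 624 and 8, and CYTC-2 (-0.53) and EXPA18 (-0.50) passed against Col-0.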
